A study of Mus musculus with 16 samples.

Results

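The genes described here are the receptor for kynurenic acid, Gpr35, the regulator of G protein signalling Rgs14, and the 3 chains of the plasma membrane carriers that move kynurenine, Slc7a5, Slc7a8 and Slc3a2. These 5 genes were chosen by name out of 55487 genes in the deposited count table, with earlier results of these data known. All 5 passed the filter on low counts, which kept 16549 genes. Male mice of 6 to 7 months provided inguinal white adipose tissue, a subcutaneous fat pad of the groin, for RNA sequencing. The 4 groups of 4 libraries were mice lacking Kmo in the whole body (KO) on a high-fat diet (HFD), wild-type littermates (WT) on HFD, KO mice on chow, and WT mice on chow. The deletion is present in the whole body, so changes within fat cells and changes that reach fat from other organs cannot be told apart. The samples are whole tissue, in which fewer cells of a type and less RNA per cell cannot be told apart either.

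Kynurenine, a product of tryptophan, is either hydroxylated by kynurenine 3-monooxygenase (Kmo) or converted by aminotransferases to kynurenic acid. Kynurenic acid activates Gpr35, a receptor that couples to inhibitory G proteins. In mouse fat, Gpr35 signalling is known for raising Rgs14, which shortens G protein signals and so modifies the response of adipocytes to beta-adrenergic input. Kynurenine itself crosses membranes through the L-type amino acid carriers. In these, a light chain that carries the substrate (Slc7a5, also called LAT1, or Slc7a8, LAT2) is bonded to the heavy chain Slc3a2 (4F2hc, CD98), which brings it to the cell surface.

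Library totals ran from 13824404 to 16909361 counts, and abundances are given in CPM, the counts scaled to a common library size with TMM normalisation. In these libraries 1 CPM stood for 14 to 17 counts. Kmo, the deleted gene, had 1 to 8 counts in each of the 8 KO libraries and 40 to 298 in each of the 8 WT libraries, so no library went against its genotype label. The adipocyte markers Adipoq, Plin1, Lipe, Cidec, Fabp4, Retn and Lep were all detected in every library, with summed levels of 26115 to 33457 CPM on HFD and 16534 to 27314 CPM on chow. T and B cell markers varied far more between libraries. A lymphocyte score that averages 9 T cell and 8 B cell genes on the log2 CPM scale was 4.31 to 5.65 in 6 libraries (KO HFD replicate 1, WT HFD replicate 2, KO chow replicates 1 and 3, WT chow replicates 2 and 4) and −0.74 to 2.67 in the other 10. Summed T cell markers reached 83.3 to 344.1 CPM in those 6 libraries and 6.36 to 26.5 CPM in the other 10, while summed B cell markers reached 319.7 to 625.2 CPM in the 6 and 3.65 to 152.2 CPM in the 10. On HFD 2 of 8 libraries had such a high score, and on chow 4 of 8. One T cell marker was at 0 in WT HFD replicate 4, and no other T or B cell marker was at 0 in any library.

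Per length of transcript the 5 genes covered a wide range. In TPM, which divides by gene length before scaling each library to the same sum, over all 16 libraries, Slc3a2 averaged 121.7 ± 48.4, Slc7a8 22.2 ± 11.4, Rgs14 6.68 ± 4.67, Slc7a5 4.44 ± 1.80 and Gpr35 1.62 ± 0.92 (SD, n = 16). Slc3a2 was the highest and Gpr35 the lowest of the 5 in each library. The order Slc3a2, Slc7a8, Rgs14, Slc7a5, Gpr35 was found in 11 libraries. Rgs14 and Slc7a5 changed places in 3 others. Rgs14 stood above Slc7a5 in all but these 3 libraries, and their difference was not tested. In KO chow replicate 3 and WT chow replicate 4, Rgs14 (13.3 and 17.2 TPM) stood above Slc7a8 (6.30 and 5.16 TPM).

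**Figure D1:**
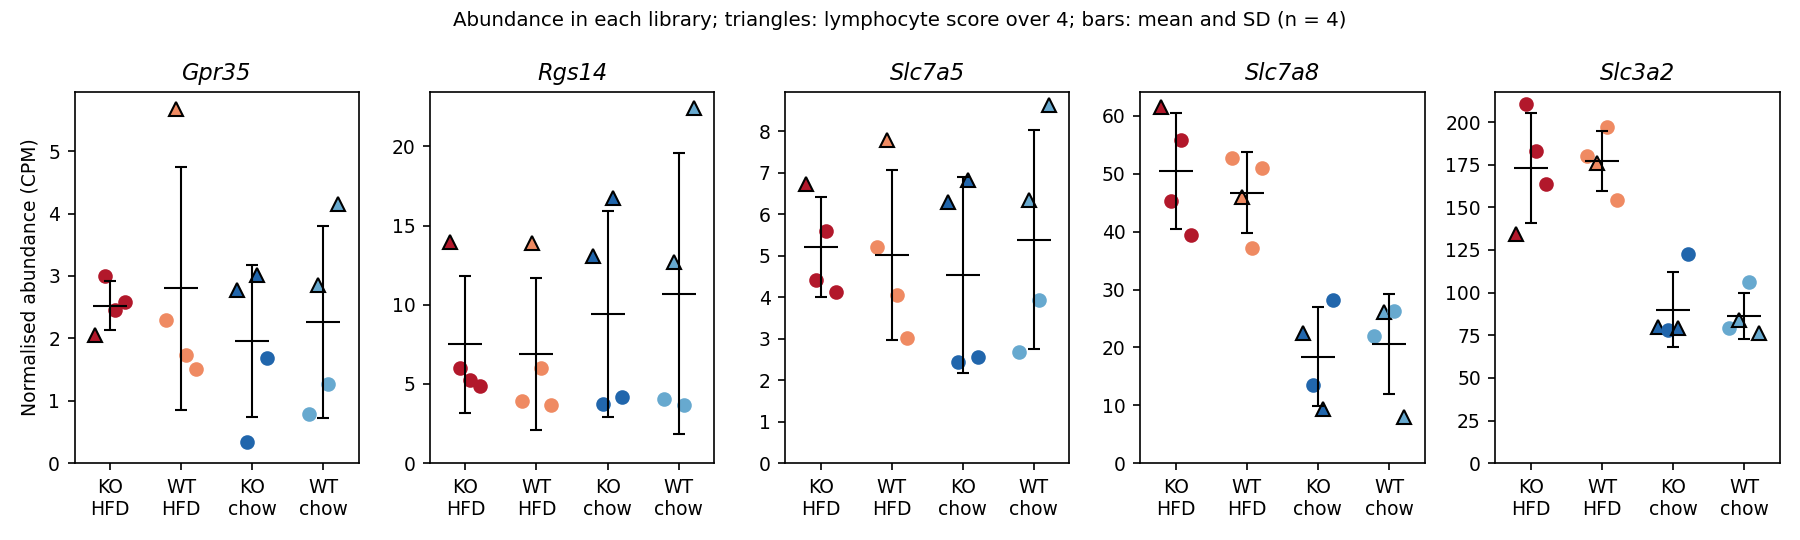
Normalised abundance (CPM, linear axes from 0) of the 5 genes in each of 16 libraries, in the groups KO HFD, WT HFD, KO chow and WT chow. Triangles are the 6 libraries with a lymphocyte score over 4, circles the other 10, and bars the mean and SD of 4 libraries. Slc7a8 and Slc3a2 separate by diet with no overlap, whereas the triangles lie highest in each group for Rgs14 and Slc7a5.

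The receptor gene, Gpr35 (ENSMUSG00000026271, GRCm38 chr1:92950865-92986391, plus strand), was detected at a low level in every library, with 5 to 89 counts. It had 2.05, 3.00, 2.46 and 2.58 CPM in KO mice on HFD and 2.29, 5.68, 1.73 and 1.51 CPM in WT mice on HFD. On chow it had 2.77, 0.339, 3.02 and 1.69 CPM in KO mice and 0.782, 2.85, 1.26 and 4.15 CPM in WT mice. All 4 groups overlapped, and WT HFD replicate 2 was the highest library. KO against WT gave a log2 fold change of −0.15 on HFD (95% interval −1.40 to 1.10) and −0.21 on chow (−1.47 to 1.05), and neither passed the test (edgeR quasi-likelihood, adjusted p = 1 for both). HFD against chow gave 0.36 in KO (adjusted p = 0.709) and 0.31 in WT (adjusted p = 0.764). A 2-fold difference in either direction lay within these genotype intervals, so one of that size was not detectable at this depth and spread. Among the 10 libraries with a lymphocyte score under 4, Gpr35 was at 1.51 to 3.00 CPM in 6 on HFD and 0.339 to 1.69 CPM in 4 on chow, a log2 difference of 1.11 that did not pass the test (unadjusted p = 0.0138, adjusted p = 0.0583). With the adipocyte score, the mean log2 CPM of 7 adipocyte markers, as a covariate in all 16 libraries, the HFD against chow difference of Gpr35 was 1.74 in KO (adjusted p = 0.117), 1.61 in WT (adjusted p = 0.142) and 1.67 over both genotypes (unadjusted p = 0.0095, adjusted p = 0.0592), larger than without it but not past the test. That score was 11.3 to 11.7 on HFD and 10.6 to 11.3 on chow, so its part and that of diet cannot be told apart.

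Rgs14 (ENSMUSG00000052087, GRCm38 chr13:55369732-55384687, plus strand), which acts as a GTPase-activating protein for inhibitory G protein alpha subunits, had 55 to 351 counts per library. It reached 13.9, 6.01, 5.22 and 4.88 CPM in KO mice on HFD, and 3.94, 13.9, 5.99 and 3.65 CPM in WT mice on HFD. In chow-fed animals the levels were 13.1, 3.73, 16.7 and 4.19 CPM in KO and 4.04, 12.7, 3.66 and 22.4 CPM in WT. Each group thus held 1 or 2 libraries at 12.7 to 22.4 CPM and 2 or 3 at 3.65 to 6.01 CPM. KO against WT differed by 0.13 on HFD (95% interval −1.32 to 1.57) and by −0.18 on chow (−1.61 to 1.25) on the log2 scale. HFD against chow differed by −0.33 in KO (adjusted p = 0.768) and −0.64 in WT (adjusted p = 0.556). None of these passed the test.

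The spread of Rgs14 followed the lymphocyte score. The 6 libraries with a score over 4 were the 6 that were high in Rgs14, whatever their genotype or diet. With the score as a covariate, the log2 difference of HFD against chow over both genotypes turned to 0.35 (adjusted p = 0.174), from −0.49 without it (adjusted p = 0.452). In the 10 libraries under 4 alone it was 0.33 (adjusted p = 0.245). With the adipocyte score as the covariate in place of the lymphocyte score it was 1.73 and passed the test (adjusted p = 0.0045), as did the differences of 1.88 in KO (adjusted p = 0.0166) and 1.58 in WT (adjusted p = 0.0229). That score itself differs between the diets, so its part and that of diet cannot be told apart in these fits. The adipocyte score was also lower in libraries high in Rgs14, with a correlation of deviations from the group means of −0.93 over 16 libraries, a description with no test. What part the lymphocyte content of a library has in its Rgs14 level was not tested beyond these fits. The 5 genes whose log2 CPM was most like Rgs14 over 16 libraries, of 13405 compared, were Arhgap30 (r = 0.99), Prex1 (0.99), Nfkbie (0.98), Fmnl1 (0.98) and Arl4c (0.98).

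**Figure D2:**
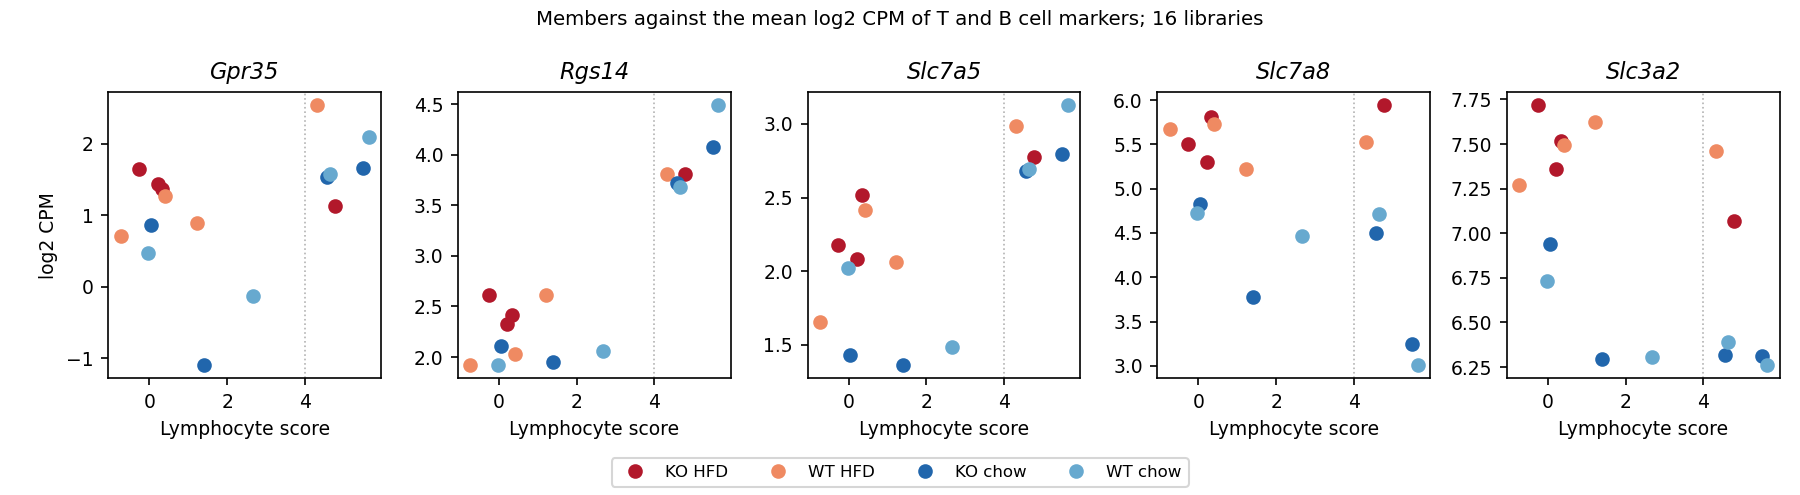
Log2 CPM of each gene (vertical axes, each with its own range) against the lymphocyte score, averaged over T and B cell markers on the log2 CPM scale (horizontal axes), with 1 point per library and colours for the 4 groups. The dotted line marks a score of 4. Rgs14 has its 6 highest libraries to the right of the line, and Slc7a8 and Slc3a2 have HFD libraries above chow libraries on both sides of it.

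Among the transporter chains, the light chain Slc7a5 (ENSMUSG00000040010, GRCm38 chr8:121881150-121907694, minus strand) was the less abundant one. It had 6.73, 4.405, 5.59 and 4.11 CPM in KO mice on HFD and 5.21, 7.79, 4.06 and 3.02 CPM in WT mice on HFD. Levels on chow were 6.29, 2.44, 6.83 and 2.56 CPM in KO mice and 2.67, 6.33, 3.93 and 8.62 CPM in WT mice. All groups overlapped. The log2 fold change of HFD against chow was 0.20 in KO (95% interval −0.68 to 1.07, adjusted p = 0.773) and −0.10 in WT (−0.97 to 0.77, adjusted p = 0.891). KO against WT gave 0.05 on HFD (−0.82 to 0.93) and −0.25 on chow (−1.12 to 0.63). As for Rgs14, the 6 libraries with a lymphocyte score over 4 were the 6 highest, at 6.29 to 8.62 CPM, and the other 10 were at 2.44 to 5.59 CPM. In those 10 libraries alone the HFD against chow difference over both genotypes was 0.61, against 0.05 in all 16, and did not pass the test (adjusted p = 0.0741). With the adipocyte score as a covariate the same difference was 1.19 and passed (adjusted p = 0.0262), as did 1.37 in KO (adjusted p = 0.0479). As for Rgs14, the part of that score and that of diet cannot be told apart here. Genes most like Slc7a5 over the 16 libraries were Ptpn1 (r = 0.95), Nipal3 (0.94), Mcm2 (0.93) and Rcc2 (0.93), beside Tcof1 (0.95). Mcm2, a subunit of the replicative helicase, was also among the 5 genes most like Gpr35 (r = 0.89), with Traf3 (0.92), Mcm5 (0.90), Basp1 (0.89) and Mogs (0.89).

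Slc7a8 and Slc3a2, a light chain and its heavy chain, were the genes that rose on HFD. The bases before the RefSeq transcript start of each are shown (GRCm38.p6), because these 2 genes were both called higher on HFD.
Slc7a8, chr14:54781887-54782136, minus strand: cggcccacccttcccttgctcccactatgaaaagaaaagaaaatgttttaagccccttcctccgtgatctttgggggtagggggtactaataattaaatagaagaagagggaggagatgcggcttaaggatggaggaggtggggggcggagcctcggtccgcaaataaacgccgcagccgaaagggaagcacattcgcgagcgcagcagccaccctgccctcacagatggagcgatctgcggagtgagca
Slc3a2, chr19:8713898-8714147, minus strand: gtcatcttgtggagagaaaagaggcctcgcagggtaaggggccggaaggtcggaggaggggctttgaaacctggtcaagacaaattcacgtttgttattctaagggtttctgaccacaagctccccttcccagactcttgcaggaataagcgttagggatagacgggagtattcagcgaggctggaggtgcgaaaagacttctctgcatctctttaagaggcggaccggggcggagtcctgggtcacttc
Each run is the 250 bases up to the base before the start, 5′ to 3′ on the gene's strand. Capitals would mark a match to one of 3 motifs searched on both strands: TGATGNAA, the C/EBP-ATF composite element that Atf4 binds, CACGTG, an E-box, and the direct repeat bound by PPAR-RXR pairs, which is 2 copies of AGGTCA with 1 base between them. Neither run holds one, nor do the windows before the 2 Gpr35 starts in the table. Of all 32851 promoter windows of this length, 3.45% held the first motif, 6.02% the E-box and 0.0335% the direct repeat, so a lack of matches is the common case. These letters are absent from these windows only; further starts exist, as the counted Slc3a2 gene reaches beyond this window to position 8723369. GC content was 55.6% for Slc7a8 and 53.6% for Slc3a2, and the median of all windows was 52.4%.

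Slc7a8 (ENSMUSG00000022180, GRCm38 chr14:54722209-54781946, minus strand) carries small and large neutral amino acids. It was measured at 61.5, 45.4, 55.8 and 39.4 CPM in KO mice on HFD, against 22.5, 13.6, 9.37 and 28.2 CPM in KO mice on chow. In WT mice it was at 52.8, 46.0, 37.1 and 51.1 CPM on HFD, against 21.96, 26.1, 26.3 and 7.92 CPM on chow. Every HFD library lay above every chow library. The log2 fold change was 1.46 in KO (SE 0.36, adjusted p = 0.0199), 1.18 in WT (SE 0.36, adjusted p = 0.0453) and 1.32 over both genotypes (SE 0.25, adjusted p = 0.0017), all by edgeR's quasi-likelihood test with Benjamini-Hochberg adjustment over all genes. Over both genotypes this was 2.50-fold (95% interval 1.72 to 3.63). Of all genes tested, 7.28% were called higher on HFD in KO, 6.9% in WT and 17.1% over both genotypes.

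The call over both genotypes was kept whichever library was left out, but those within a genotype lay near the threshold. In KO it was lost without KO chow replicate 2 (log2 1.34) or 3 (1.24), or KO HFD replicate 3 (1.41), with adjusted p of 0.0578 to 0.0625. In WT it was lost without any 1 of 11 libraries: KO chow replicate 1 (1.18), KO HFD replicates 1 to 4 (1.18, 1.19, 1.18 and 1.19), WT chow replicate 1 (1.22) or 4 (0.91), or WT HFD replicates 1 to 4 (1.13, 1.19, 1.28 and 1.14), with adjusted p of 0.05004 to 0.0888.

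The heavy chain Slc3a2 (ENSMUSG00000010095, GRCm38 chr19:8706882-8723369, minus strand) also assembles with light chains other than Slc7a5 and Slc7a8. It was at 134.1, 210.5, 183.2 and 163.9 CPM in KO mice on HFD, against 79.7, 78.3, 79.4 and 122.8 CPM in KO mice on chow. In WT mice it was at 180.2, 175.9, 197.2 and 154.4 CPM on HFD, against 79.0, 83.8, 106.1 and 76.5 CPM on chow. HFD and chow libraries did not overlap. Slc3a2 rose by 0.94 on the log2 scale in KO (SE 0.17, adjusted p = 0.0052), by 1.03 in WT (SE 0.17, adjusted p = 0.0033) and by 0.99 over both genotypes (SE 0.12, adjusted p = 7.9e-05), which was 1.98-fold (95% interval 1.67 to 2.36). Each of these calls was kept whichever library was left out. All libraries on HFD were above all on chow for 10.2% of genes in KO, 10% in WT and 4.33% over both genotypes.

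Markers of some cell types moved with diet in the same direction as Slc7a8 and Slc3a2, and those of others moved the opposite way. The adipocyte score was 11.3 to 11.7 on HFD and 10.6 to 11.3 on chow, and only Cidec and Lep of its 7 genes were themselves called, both higher on HFD (median over the 7 of 0.20). Of 6 endothelial markers 3 were called higher over both genotypes (median 0.35), with summed levels of 546.0 to 1014 CPM in KO and 510.5 to 826.6 CPM in WT on HFD, against 500.01 to 685.3 CPM in KO and 399.9 to 624.6 CPM in WT on chow, and their part in the rise of the carrier chains was not tested. Of 9 macrophage markers 2 were called higher (median 0.44), which lies near the 17.1% of all genes called higher over both genotypes. In the other direction, all 9 T cell markers (median −2.10) and all 8 B cell markers (median −1.01) were lower on HFD, though only 1 T cell marker was called. Of 9 skeletal muscle markers tested, 8 were lower (median −0.99) and none was called. With the adipocyte score as a covariate the Slc7a8 difference over both genotypes was 0.67 (adjusted p = 0.173) and no longer passed, while that of Slc3a2 was 0.68 (adjusted p = 0.0123) and did. Since the score itself differs between the diets, its part and that of diet cannot be told apart here. In the 10 libraries with a lymphocyte score under 4, Slc7a8 (1.06, adjusted p = 0.0077) and Slc3a2 (0.91, adjusted p = 0.0031) were called over both genotypes, as they were in the 12 libraries merged over sequencing lanes (1.38, adjusted p = 0.0152, and 1.05, adjusted p = 0.0014), which leave out 4 from a single lane, 3 of them on HFD. The macrophage score was 6.05 to 6.90 on HFD and 5.29 to 6.98 on chow, and with it as a covariate Slc7a8 differed by 1.11 (adjusted p = 0.0161). Deviations from the group means of Slc7a8 and Slc3a2 correlated at 0.35 over the 16 libraries. Those of Slc7a8 correlated at 0.68 with the skeletal muscle score, the mean log2 CPM of its markers. They correlated at 0.67 with the adipocyte, 0.50 with the macrophage and −0.37 with the lymphocyte score. Those of Slc3a2 correlated at −0.63 with the lymphocyte, 0.57 with the adipocyte, 0.43 with the skeletal muscle and 0.01 with the macrophage score. All are descriptions with no test. Genes most like Slc7a8 were Tln2 (r = 0.99), Nid1 (0.98), Anxa1 (0.97), Fam114a1 (0.97) and Fat1 (0.97), and those most like Slc3a2 were Copg1 (0.98), Cdkn1a (0.98), Sptan1 (0.98), Tatdn2 (0.98) and Mprip (0.98), correlations that include the shared diet difference.

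**Figure D3:**
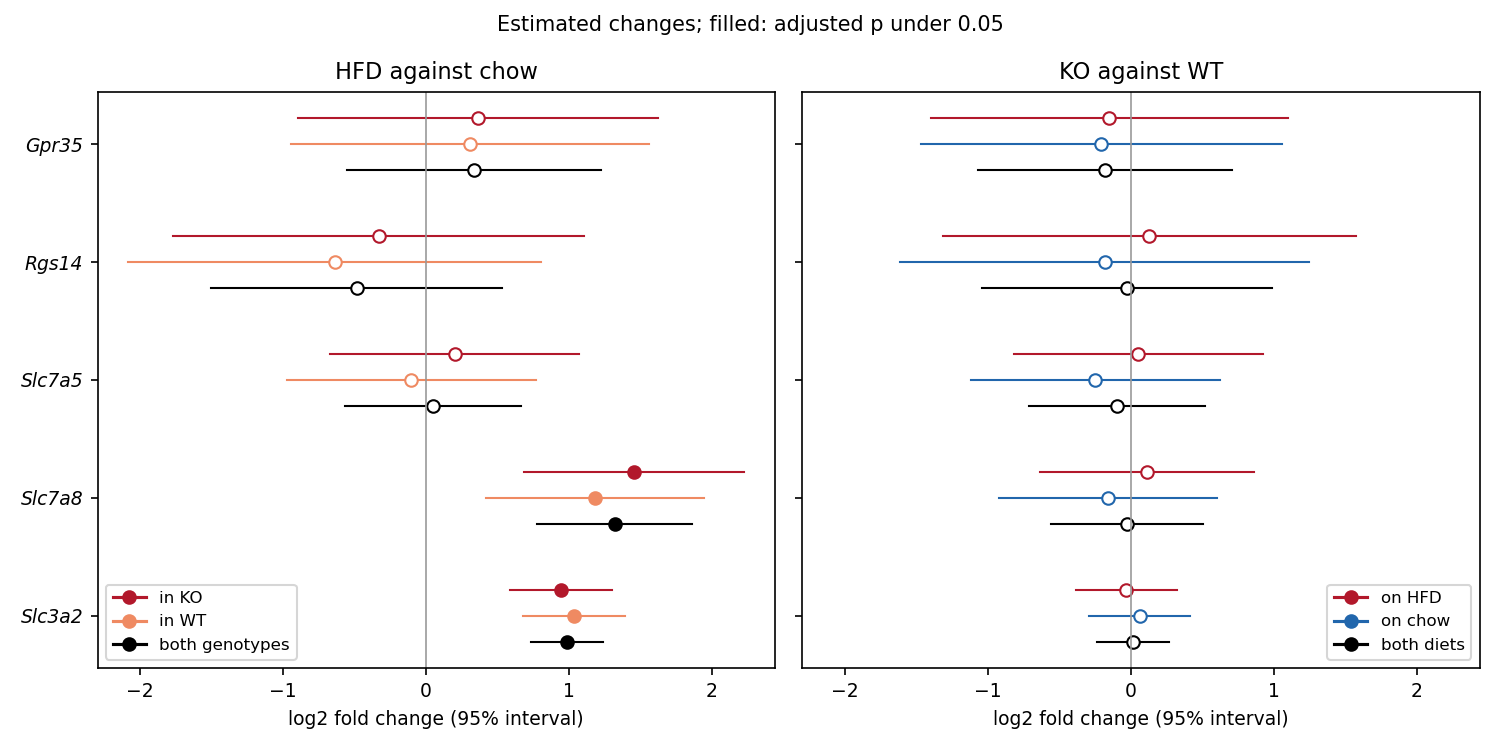
Log2 fold changes (horizontal axes) of the 5 genes with 95% intervals, for HFD against chow (left: in KO, in WT and over both genotypes) and for KO against WT (right: on HFD, on chow and over both diets). Filled points passed an adjusted p of 0.05. Slc7a8 and Slc3a2 are to the right of 0 for diet, and every interval crosses 0 for genotype.

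Loss of Kmo moved none of the 5 genes past the test. On simulated data that test recovered 40% of 2-fold and 76% of 4-fold changes between KO and WT on chow. Slc7a8 differed between KO and WT by 0.11 on HFD (95% interval −0.64 to 0.86) and by −0.16 on chow (−0.92 to 0.60), and Slc3a2 by −0.03 on HFD (−0.39 to 0.32) and 0.06 on chow (−0.29 to 0.41). Over both diets the log2 differences ran from −0.18 for Gpr35 to 0.01 for Slc3a2, the narrowest interval being that of Slc3a2 (−0.24 to 0.26) and the widest that of Rgs14 (−1.04 to 0.99). The smallest unadjusted p of any of the 5 genes in these comparisons was 0.555 (Slc7a5 on chow), and none was called by DESeq2 either. Called genes made up 0.00604% of those tested on each diet and over both, namely Kmo alone. In the authors' deposited table for each diet the 5 genes had adjusted p-values of 1 when rounded. A difference between genotypes in the change with diet did not pass the test for any of the 5 (interaction log2 −0.09 to 0.31, adjusted p = 1 when rounded). No gene had a called interaction (edgeR, and DESeq2 likewise), and 187 of 16549 (1.13%) had an unadjusted p under 0.05. With no interaction in any gene a share near 0.05 is the usual case, so this test was conservative here. Its lack of calls does not show that interactions are absent. Intervals of the interaction were wide, at −0.59 to 0.41 for Slc3a2 and −0.79 to 1.34 for Slc7a8.

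Because a carrier needs both chains, their proportions were compared per transcript length. The ratio of Slc7a8 to Slc7a5 TPM had a median of 7.24 on HFD (range 4.38 to 12.5) and 3.59 on chow (0.68 to 8.15, with 8 libraries each). The lowest ratios, 0.68 in WT chow replicate 4 and 1.02 in KO chow replicate 3, were in the libraries with the highest lymphocyte scores (5.65 and 5.50). The mean log2 ratio was 1.297 higher on HFD (exact permutation test within genotype, two-sided p = 0.0102). It did not pass after adjustment over the 10 ratio comparisons made (adjusted p = 0.102), which were chosen after the levels were seen. Slc3a2 TPM divided by that of both light chains together averaged 4.63 ± 1.20 on HFD and 4.99 ± 1.13 on chow (SD, n = 8 each), a log2 difference of −0.12 (exact permutation test, p = 0.542, adjusted p = 0.903). This ratio leaves out the other light chains that share Slc3a2, of which Slc7a10 alone had a median of 379.2 TPM, against 122.9 TPM for Slc3a2. It therefore does not measure an excess of heavy chain.

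Other light chains that share the Slc3a2 heavy chain spanned a wide range of levels. Slc7a10 (Asc-1), a carrier of small neutral amino acids known from adipocytes, was at 447.2 ± 29.4 TPM in KO and 462.6 ± 63.1 TPM in WT on HFD, against 277.2 ± 77.4 TPM in KO and 273.9 ± 35.4 TPM in WT on chow (SD, n = 4 each). It was the 1 called gene of the 5 tested in the list of 7 other heteromeric chains, higher by 0.64 in KO (adjusted p = 0.0138) and 0.70 in WT (adjusted p = 0.0101), where 7.28% of all genes in KO and 6.9% in WT were called higher. Over both genotypes 2 of the 5 were called higher without WT chow replicate 3 or 4 or KO chow replicate 2, and 1 was called lower without WT chow replicate 3 or KO HFD replicate 1. Slc7a6 and Slc7a7, which exchange cationic for neutral amino acids, differed by 0.22 (adjusted p = 0.063) and 0.47 (adjusted p = 0.146) over both genotypes. The cystine carrier Slc7a11 stood at 0.19 ± 0.28 TPM in KO and 0.17 ± 0.20 TPM in WT on HFD, against 1.18 ± 1.75 TPM in KO and 0.89 ± 1.06 TPM in WT on chow, and was not called (adjusted p = 0.0707). Slc3a1, the other heavy chain, had 69 counts in all 16 libraries and its partner Slc7a9 had 0.

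**Figure D4:**
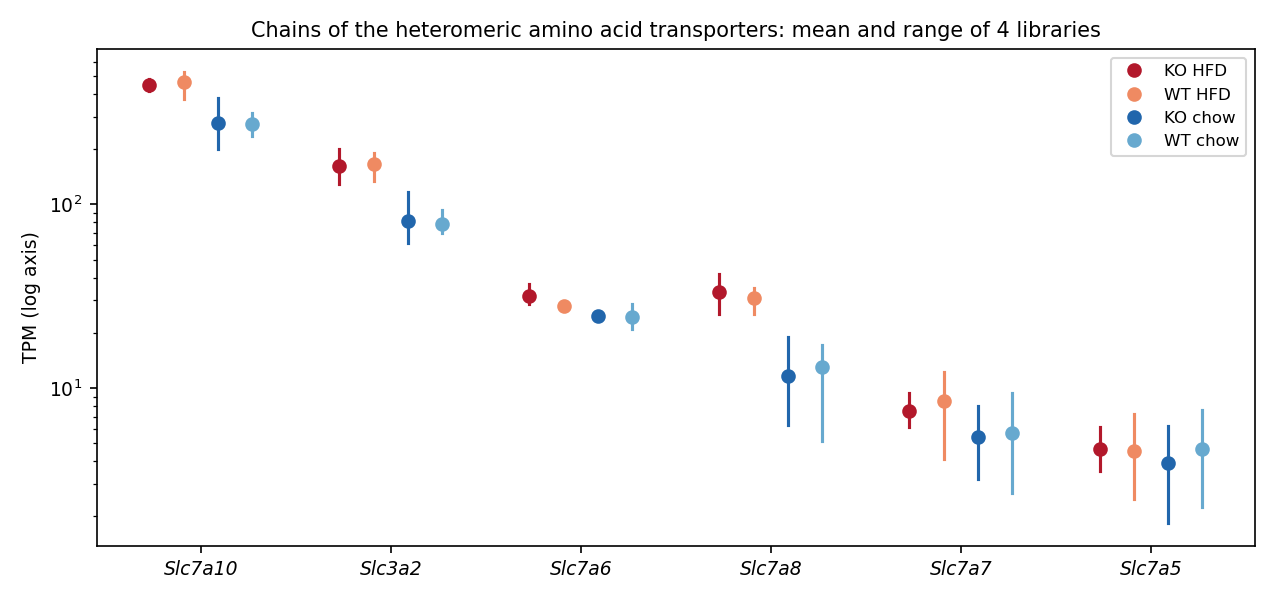
TPM (log axis) of 6 chains of heteromeric amino acid transporters in KO HFD, WT HFD, KO chow and WT chow. Chains run from high to low by their median over all libraries, an order that not every group keeps. Points are the mean and lines the range of 4 libraries. The HFD ranges of Slc3a2, Slc7a8 and Slc7a10 lie above the chow ranges of the same genotype, as does that of Slc7a6 in KO. Those of Slc7a5 overlap in all groups.

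Of 17 other carriers of neutral, aromatic and cationic amino acids, 14 were tested and over both genotypes 3 were called higher and 2 lower on HFD (median log2 fold change −0.12, against −0.04 for all genes), where 17.1% of all genes were called higher and 16% lower, so these counts lie near the background. Slc16a10 (TAT1), which carries aromatic amino acids by facilitated diffusion, rose by 0.63 (adjusted p = 0.0025), at 75.4 ± 14.7 CPM in KO and 67.4 ± 7.28 CPM in WT on HFD, against 48.2 ± 10.99 CPM in KO and 44.0 ± 9.99 CPM in WT on chow. Slc1a4 rose by 1.01 (adjusted p = 0.0015) and Slc7a1, the cationic carrier CAT1, by 0.40 (adjusted p = 0.0243). Slc43a1 (LAT3), an L-type carrier that needs no heavy chain, fell by 1.63 on the log2 scale (adjusted p = 0.002), and Slc7a3 fell by 1.03 (adjusted p = 0.0038) at a level near 1 CPM. The glutamine carrier Slc1a5 was the most abundant of these at a mean of 2402 CPM and was not called (−0.24, adjusted p = 0.127).

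Slc3a2 and Slc7a5 are both known targets of Atf4, the transcription factor of the amino acid response. Of the 26 genes in a list of Atf4 and its targets, which includes them and Slc7a11, 12 were called higher and none lower on HFD over both genotypes, with a median of 0.28. Within a genotype the number called higher was 8 in KO and 7 in WT, beside 7.28% and 6.9% of all genes, and ran over the alternatives from 3 to 11 in KO and from 1 to 11 in WT. In KO it was 3 without KO HFD replicate 2, 4 without KO HFD replicate 4 or KO chow replicate 2 or 3, and 5 without KO HFD replicate 3 or KO chow replicate 1. In WT it was 3 without WT HFD replicate 3 and 11 without WT chow replicate 3. Calls over all genes in either direction also varied with 1 library left out, from 745 to 2714 in KO and from 689 to 2400 in WT. Over both genotypes 1 gene of the list was called lower without WT chow replicate 3 or KO HFD replicate 1. Apart from the 2 members, 11 of 24 were called higher, among 17.1% of all genes. Psat1, an enzyme of serine synthesis, rose by 0.81 (adjusted p = 0.0005). Eprs, a tRNA synthetase, rose by 0.63 (adjusted p = 0.0002) and Nars, another, by 0.47 (adjusted p = 0.0003). Atf4 mRNA itself was at 0.06 (adjusted p = 0.704) and Asns, the asparagine synthetase gene, at 0.22 (adjusted p = 0.229). In the 10 libraries with a lymphocyte score under 4, 11 of the 26 were called higher, and with the adipocyte score as a covariate 7. Calls over all genes fell as well, from 5471 in either direction to 3544 and 2349 in these fits.

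Around the receptor, 5 of 12 genes for G proteins, arrestins and receptor kinases were called over both genotypes, 4 higher and 1 lower on HFD (median 0.14), where 17.1% of all genes were called higher and 16% lower. The number lower was 2 without WT chow replicate 1 or KO chow replicate 2. Within a genotype 4 were also called higher and 1 lower, beside 7.28% of all genes higher and 5.23% lower in KO and 6.9% higher and 4.92% lower in WT. With 1 library left out, calls over all genes in either direction ran from 745 to 2714 in KO and from 689 to 2400 in WT. The 4 higher of this list were not stable either, at 1 to 4 over the alternatives in each genotype. In KO they were 1 without KO HFD replicate 2 or 3 or KO chow replicate 2 or 3, and 2 without KO HFD replicate 4. In WT they were 1 without WT HFD replicate 3 or WT chow replicate 1 or 4, and 2 without KO HFD replicate 2, 3 or 4, WT HFD replicate 2 or 4, KO chow replicate 1 or 4, or WT chow replicate 2. The scaffold Arrb1 rose by 0.78 over both genotypes (adjusted p = 2.3e-05), at 147.6 ± 3.88 CPM in KO and 155.5 ± 8.80 CPM in WT on HFD, against 86.8 ± 12.4 CPM in KO and 89.7 ± 11.9 CPM in WT on chow. Gnai1, the gene of an inhibitory alpha subunit, rose by 0.63 (adjusted p = 0.0025) and Gna12 by 0.49 (adjusted p = 0.0007). Among receptor kinases, Grk5 rose by 0.57 (adjusted p = 0.0032) and Grk3 fell by 1.04 (adjusted p = 0.0002). Of 20 other RGS genes, 14 were tested, none was called higher and 3 were lower over both genotypes: Rgs3 (−0.49, adjusted p = 0.0032), Rgs7 (−0.55, adjusted p = 0.009) and Rgs11 (−1.79, adjusted p = 0.0251, near 1 CPM). With 16% of all genes called lower and 17.1% higher, the 3 of 14 lie near the background, and 1 was called higher without KO chow replicate 3. In the 10 libraries with a low lymphocyte score 1 gene of this list was called lower, where calls over all genes numbered 3544, against 5471 in all 16 libraries.

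**Figure D5:**
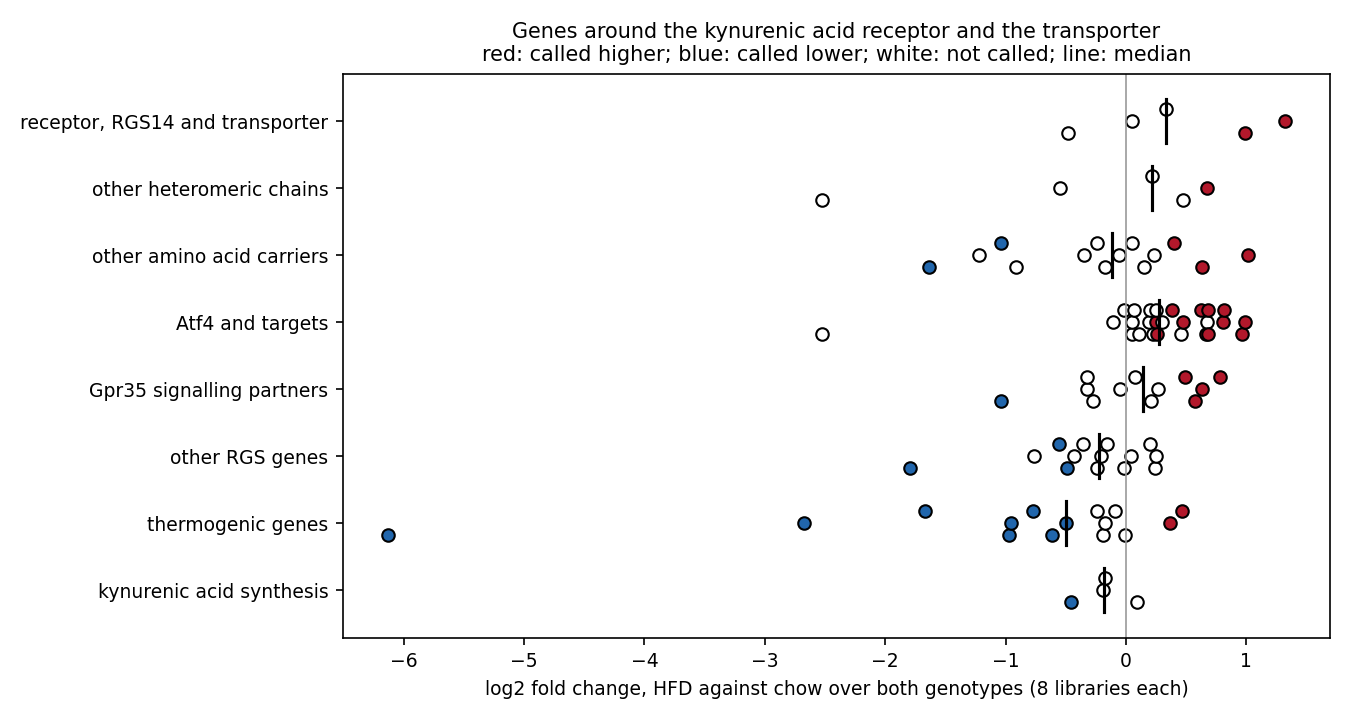
Log2 fold change of HFD against chow over both genotypes (horizontal axis, 8 libraries each) for the tested genes of 8 lists. Red points were called higher, blue lower and white neither, and the short line is the median. Among thermogenic genes Ucp1 lies farthest left at −6.13, and the 12 called genes of the Atf4 list lie between 0.25 and 0.99.

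The beta-adrenergic and thermogenic genes, some of which Gpr35 signalling is known to raise in mouse fat, were next. Of 15 tested, 8 were called lower and 2 higher over both genotypes (median −0.50), beside 16% of all genes called lower and 17.1% higher. Ucp1, the uncoupling protein of brown and beige adipocytes, had 0.98 ± 0.12 CPM in KO and 1.54 ± 1.12 CPM in WT on HFD, against 104.9 ± 63.2 CPM in KO and 71.6 ± 100.3 CPM in WT on chow, and fell by 6.13 (adjusted p = 0.0001). Cidea fell by 2.67 (adjusted p = 0.0001), Cox8b by 1.67 (adjusted p = 0.0012) and Ppargc1b by 0.78 (adjusted p = 0.0006). The receptor gene Adrb3 fell by 0.96 (adjusted p = 0.0026) over both genotypes. Gnas and Prkar2b were the 2 called higher, at 0.46 (adjusted p = 0.0477) and 0.37 (adjusted p = 0.0249). In the 10 libraries with a lymphocyte score under 4, calls over all genes numbered 3544, against 5471 in all 16 libraries. There 7 of the list were called lower, and neither Gnas nor Prkar2b was called. With 1 library left out, neither was called without KO HFD replicate 3 or WT HFD replicate 3, and 1 gene of the list was called higher without KO HFD replicate 1, 2 or 4, WT HFD replicate 1 or 2, KO chow replicate 2 or 3, or WT chow replicate 1 or 4. KO against WT changed none of the 15 past the test on either diet, with medians of 0.06 on HFD and 0.05 on chow.

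The enzymes that make kynurenic acid differed widely in level. Kyat1 was at 18.1 ± 1.52 TPM in KO and 17.6 ± 0.62 TPM in WT on HFD, against 17.3 ± 2.04 TPM in KO and 14.9 ± 1.30 TPM in WT on chow. Kyat3 had a median of 7.02 TPM over all libraries and Aadat only 2 counts in total. Got2, a mitochondrial aminotransferase, was the 1 called gene of the 4 tested, with a fold change of −0.46 on the log2 scale over both genotypes (adjusted p = 0.0245), where 16% of all genes were called lower. It was not called within either genotype, in the 10 libraries with a low lymphocyte score, or without KO HFD replicate 3 or 4, WT HFD replicate 3, KO chow replicate 3 or WT chow replicate 4. The organic anion carriers Slc22a6 and Slc22a8 had 0 counts in all libraries, and Abcc4, an exporter, was at 5.50 to 8.34 TPM. None of the genes in the 7 lists around the receptor and the carriers was called between KO and WT on either diet.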

How the data were processed

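Poly-A RNA of 16 inguinal fat samples was sequenced with a stranded mRNA kit as pairs of 150-base reads, from RNA with an integrity number over 7, per the labels' protocols. The submitters' processing notes name STAR 2.7.3a and the build GRCm38.p6. Fragments were counted by the authors per gene with featureCounts 2.0.3, without strand and with Ensembl 102, per the file headers, and whole-number counts were deposited. In the coordinates of that table, no exon of the 5 genes shares bases with an exon of another gene. The authors' deposited tables of log2 fold changes and p-values, from DESeq2 per the submitters' processing notes, were used only where credited. The genes, lists and alternatives were chosen with earlier results of these data known.

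The counts were analysed with R 4.3.3 and edgeR 4.0.16. Genes were filtered with filterByExpr and scaled by TMM, and a quasi-likelihood model with 4 group means was fitted to all 16 libraries (glmQLFit, robust, and glmQLFTest), with Benjamini-Hochberg adjustment over 16549 genes and a threshold of 0.05. Log2 CPM used a prior count of 2, and TPM used the deposited gene lengths. Likeness is Pearson's r of log2 CPM over 16 libraries among genes of at least 1 CPM in a group and without predicted genes. For each list the text names up to 4 members, called ones by adjusted p first and otherwise the most abundant, and further members named were chosen after their values were seen. The labels give each library its own code and replicate number without saying that each is a separate mouse, so p-values measure only the spread between these samples. The lowest chi-square per gene between libraries of a group was 9.82, so no 2 libraries of a group agreed within sampling noise. The model was tested on simulated data. Alternatives were other scaling factors and filters, DESeq2 1.42.0, limma-voom (limma 3.58.1), a replicate block, marker scores as covariates, subsets of libraries, and leaving out each library. The fits on merged libraries and with 2 scores together were added after seeing the data. The 16 libraries held 13824404 to 16909361 counts. Promoter windows came from RefSeq (GRCm38.p6) and were found for 3 of the 5 genes.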

Additional observations from a re-analysis of the deposited data

Results flagged for a closer look

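The 20 sets of 4 libraries formed by 5 genes and 4 groups were each searched for a library that stands apart by Dixon's test, and chance alone gives about 1 such set in 20. Rgs14 in KO HFD replicate 1 was at 13.9 CPM, while the other 3 KO libraries on HFD were at 4.88 to 6.01 CPM. That library is 1 of the 6 with a lymphocyte score over 4, and its score was 4.78 against −0.27 to 0.33 in the other 3. Its part in the Rgs14 level was not tested. Slc3a2 in KO chow replicate 4 was at 122.8 CPM, while the other 3 KO libraries on chow were at 78.3 to 79.7 CPM. This library had the lowest lymphocyte score (0.04) and the highest Slc7a8 level (28.2 CPM) of its group. It also had the highest adipocyte (11.3) and skeletal muscle (4.77) scores of its group. What part these scores have in its Slc3a2 level was not tested. Without this library, Slc3a2 rose on HFD in KO mice by 1.13 on the log2 scale (adjusted p = 0.00085, edgeR's quasi-likelihood test).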

How the results depend on the processing

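All values here are log2 fold changes, "diet" meaning HFD against chow and "genotype" KO against WT, and the causes of the shifts were not tested. The rise of Slc3a2 on HFD kept its direction under every alternative run and lost its call in KO with the adipocyte score as a covariate. The rise of Slc7a8 over both genotypes lost its call with that covariate and with no other alternative run. No genotype difference or interaction of the 5 genes was called under any alternative, so the turned signs there concern differences near 0. With the adipocyte score the turned diet differences of Rgs14 were themselves called (adjusted p of 0.0166 in KO, 0.0229 in WT and 0.0045 over both genotypes). In those fits the part of the score and that of diet cannot be told apart. With the lymphocyte score as a covariate, the sign turned for Gpr35 (0.099 for genotype on HFD, 0.0044 for genotype over both diets), Rgs14 (0.013 for genotype on chow, 0.12 for genotype over both diets, 0.24 for diet in WT, 0.46 for diet in KO, 0.35 for diet over both genotypes), Slc7a5 (0.33 for diet in WT) and Slc3a2 (−0.013 for genotype over both diets), and the call was lost for Slc7a8 (1.08 for diet in WT). With only the libraries with a lymphocyte score under 4, the sign turned for Gpr35 (0.54 for genotype on HFD, 0.27 for genotype over both diets), Rgs14 (0.030 for genotype on chow, 0.14 for genotype over both diets, 0.22 for diet in WT, 0.44 for diet in KO, 0.33 for diet over both genotypes), Slc7a5 (0.30 for diet in WT), Slc7a8 (−0.0018 for genotype on HFD) and Slc3a2 (0.070 for genotype on HFD), and the call was lost for Slc7a8 (0.95 for diet in WT, 1.17 for diet in KO). With the lymphocyte and macrophage scores together, an alternative added after seeing the data, the sign turned for Gpr35 (0.11 for genotype on HFD, 0.013 for genotype over both diets), Rgs14 (0.017 for genotype on chow, 0.13 for genotype over both diets, 0.21 for diet in WT, 0.43 for diet in KO, 0.32 for diet over both genotypes), Slc7a5 (0.40 for diet in WT), Slc7a8 (0.063 for genotype over both diets) and Slc3a2 (−0.0036 for genotype over both diets), and the call was lost for Slc7a8 (0.76 for diet in WT, 1.12 for diet in KO). With the adipocyte score as a covariate, the sign turned for Gpr35 (0.075 for genotype on HFD, 0.011 for genotype over both diets), Rgs14 (0.030 for genotype on chow, 0.18 for genotype over both diets, 1.58 for diet in WT, 1.88 for diet in KO, 1.73 for diet over both genotypes), Slc7a5 (0.9985 for diet in WT) and Slc3a2 (−0.018 for genotype over both diets), and the call was lost for Slc7a8 (0.54 for diet in WT, 0.80 for diet in KO, 0.67 for diet over both genotypes) and Slc3a2 (0.63 for diet in KO), and a call was gained for Slc7a5 (1.37 for diet in KO, 1.19 for diet over both genotypes). With the macrophage score as a covariate, the sign turned for Slc7a8 (0.040 for genotype over both diets), and the call was lost for Slc7a8 (0.95 for diet in WT, 1.27 for diet in KO). With the skeletal muscle score as a covariate, the sign turned for Gpr35 (−0.11 for the interaction), Rgs14 (−0.026 for genotype on HFD), Slc7a5 (−0.0096 for genotype on HFD), Slc7a8 (0.13 for genotype over both diets) and Slc3a2 (0.061 for genotype on HFD). With limma-voom with quality weights, the sign turned for Gpr35 (0.013 for genotype on chow, 0.041 for genotype on HFD, 0.027 for genotype over both diets), Rgs14 (0.13 for genotype on chow, −0.14 for genotype on HFD, −0.27 for the interaction), Slc7a5 (−0.068 for genotype on HFD, 0.16 for diet in WT) and Slc3a2 (0.0034 for genotype on HFD). With only the libraries merged over lanes, also added after seeing the data, the sign turned for Gpr35 (−0.50 for the interaction), Rgs14 (−0.74 for genotype on HFD, −0.66 for the interaction), Slc7a5 (−0.47 for genotype on HFD, 0.37 for diet in WT, −0.31 for the interaction), Slc7a8 (−0.082 for genotype on HFD, −0.056 for the interaction) and Slc3a2 (0.056 for genotype on HFD, 0.0099 for the interaction), and the call was lost for Slc7a8 (1.41 for diet in WT, 1.35 for diet in KO). With a term for single-lane libraries, the sign turned for Slc7a8 (0.021 for genotype over both diets) and Slc3a2 (−0.031 for genotype over both diets), and the call was lost for Slc7a8 (1.15 for diet in WT). With upper-quartile factors, the sign turned for Slc7a5 (−0.011 for diet over both genotypes), and the call was lost for Slc7a8 (1.14 for diet in WT). With no filter, the call was lost for Slc7a8 (1.20 for diet in WT, 1.46 for diet in KO). With only the 8 libraries compared, the call was lost for Slc7a8 (1.18 for diet in WT). Relative log expression factors, DESeq2, a filter of CPM 1 in 4 libraries and a threshold of 0.10 changed no sign and no call of the 5 genes. The replicate numbers paired no samples: 9 of 24 pairs of same-numbered libraries had a correlation of deviations over 0.1 (range −0.75 to 0.60), and 3 of 16 libraries were closest to their own number. With the replicate block, Gpr35 was at −0.071 for the interaction, Slc7a8 at 1.18 for diet in WT (adjusted p = 0.0907) and 1.46 for diet in KO (adjusted p = 0.0502), and the genes called were 1050 for diet in WT and 1126 in KO. With 1 library left out at a time, values ran as follows where a sign or call changed. For diet in KO, Rgs14 −0.81 to 0.099, Slc7a5 −0.0044 to 0.47, Slc7a8 1.24 to 1.74. For diet in WT, Gpr35 −0.29 to 0.77, Rgs14 −1.24 to 0.012, Slc7a5 −0.39 to 0.22, Slc7a8 0.91 to 1.33. For diet over both genotypes, Slc7a5 −0.096 to 0.21. For genotype on HFD, Gpr35 −0.36 to 0.45, Rgs14 −0.36 to 0.73, Slc7a5 −0.13 to 0.35, Slc3a2 −0.14 to 0.071. For genotype on chow, Gpr35 −0.50 to 0.26, Rgs14 −0.61 to 0.47, Slc7a5 −0.52 to 0.073, Slc7a8 −0.44 to 0.057, Slc3a2 −0.13 to 0.18. For genotype over both diets, Gpr35 −0.33 to 0.12, Rgs14 −0.27 to 0.30, Slc7a5 −0.23 to 0.063, Slc7a8 −0.17 to 0.084, Slc3a2 −0.080 to 0.071. For the interaction, Gpr35 −0.41 to 0.66, Rgs14 −0.34 to 0.91, Slc7a5 −0.021 to 0.59, Slc3a2 −0.21 to 0.093. Genes called for diet were 1957 in WT, 2071 in KO and 5471 over both genotypes. They were 1245 and 1284 within WT and KO with no filter, 3366 and 3460 at a threshold of 0.10, 631, 874 and 2779 (WT, KO and both) with the macrophage score, 865, 998 and 2349 with the adipocyte score, 625, 768 and 3544 with a lymphocyte score under 4, and 695, 1071 and 2418 with the lymphocyte and macrophage scores. They were 1140 in WT with only its 8 libraries, 225 in WT with merged libraries, 3412 in KO with limma-voom, and 689 to 2400 in WT and 745 to 2714 in KO with 1 library left out. The 1 gene called for genotype on each diet, Kmo, was lost with limma-voom, no filter, the macrophage score, only 8 libraries, a lymphocyte score under 4, the single-lane term and merged libraries. Upper-quartile factors moved the split of diet calls, to 902 higher and 1031 lower in WT (1142 and 815 with TMM factors), 919 and 1113 in KO (1205 and 866) and 2309 and 3298 over both (2827 and 2644), with a median over all genes of −0.09 in WT and −0.10 in KO against −0.03 and −0.04. Gpr35 had 5 to 89 counts per library, which limits how small a change in it could be detected.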

Other observations

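Several of the genes most like the chains of the carrier also changed with diet, which their selection by likeness over libraries of both diets favours. Cdkn1a, an inhibitor of cyclin-dependent kinases and the second most like Slc3a2, rose on HFD by 2.38 in KO (adjusted p = 0.0028) and 2.67 in WT (adjusted p = 0.0017) on the log2 scale by edgeR. Copg1, a coat subunit of Golgi vesicles, rose by 0.69 in KO (adjusted p = 0.0039) and 0.62 in WT (adjusted p = 0.0049). Tln2, which links integrins to actin and was most like Slc7a8, rose by 1.38 in KO (adjusted p = 0.0104) and 1.07 in WT (adjusted p = 0.0287). Its fellow Nid1, a basement membrane protein, rose by 1.04 in KO (adjusted p = 0.0131) and 0.87 in WT (adjusted p = 0.0285). None of the 5 genes most like Rgs14 was called for diet in either genotype, with log2 differences of −0.72 to −0.30 in KO and −0.98 to −0.53 in WT.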
